A study of Mus musculus with 10 samples.

Results

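The 90 genes described here code for the nuclear-encoded parts of the mitochondrial respiratory chain and of ATP synthase. They were taken by symbol and by no measured value, as all annotated genes whose symbol starts with Nduf, Uqcr, Atp5, Cox4i, Cox5, Cox6, Cox7 or Cox8, together with Sdha, Sdhb, Sdhc and Sdhd. They are 90 of the 18194 genes that the array annotation names, each read from its brightest probe set by the mean of all 10 arrays. Complex I gave 6 core subunits, 30 accessory subunits and 8 genes with the Ndufaf prefix, which code for assembly factors and not for subunits. Complex II gave 4 genes, complex III 8, complex IV 17 and complex V 17. The test required a level over the median of the array in 2 or more of the 10 samples, which kept 86 of the 90, and all 86 passed the median in all 10. The 4 genes not tested were Cox6b2 and Cox8b, above the median on 1 array each, and Cox7b2 and Ndufb4, above it on 0 arrays.

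The arrays measured total RNA from mouse leukemia stem cell (LSC) lines grown with stem cell factor and serum. Treated RH-RAS lines 1 and 3 had received 1 µM SGC0946, a small-molecule inhibitor of the histone H3 methyltransferase Dot1l, for 4 days, and each gave 1 array. The MLL-AF9 line, with 1 array, was transformed by that fusion gene, and 3 lines, with 1 array each, were transformed by NUP98-JARID1A, all without inhibitor. The untreated RH-RAS lines 1, 2, 3 and 4, with 1 array each, were transformed by DNMT3A carrying R882H together with NRAS carrying G12D, which the treated arrays share because they are of the same lines. Independent derivation is stated for the RH-RAS lines alone, and for the others a p-value covers only the spread between the samples at hand. Whether the untreated cultures received a vehicle is not given in the sources used here, nor is any scan batch.

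Complexes I to IV pass electrons taken from NADH and succinate to oxygen and, at complexes I, III and IV, move protons out of the mitochondrial matrix. Complex V, the ATP synthase, lets the protons back in and makes ATP. Most subunits are needed in fixed proportion, while a few in complexes IV and V exist as paralogous isoforms, and the isoforms Cox6a2 and Cox7a1 are best known from heart and skeletal muscle. Blood stem cells are known for a low reliance on this pathway compared with the cells that mature from them.

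Values are log2 intensities after the authors' RMA, a method that corrects background, normalises arrays to a common distribution and summarises the probes of a probe set. A difference of 1 is a 2-fold difference, and precision is set by the small number of arrays. Ptprc, the leukocyte surface antigen CD45, lay between 12.33 and 13.05 on all 10 arrays. The mean level of a list of 10 monocyte and macrophage markers was 10.6 and 10.7 on the treated arrays, 8.36 in the MLL-AF9 line, 9.17 to 10.1 in NUP98-JARID1A lines and 7.18 to 8.53 in untreated RH-RAS lines. Untreated line 4 gave the 8.53, and lines 1 to 3 gave 7.18 to 7.27. Of these 10 markers 9 rose and 0 fell with SGC0946, and 7 rose and 1 fell in NUP98-JARID1A lines. In the MLL-AF9 line 4 of the 10 were higher and 2 lower by 1 or more. The mean of 9 late neutrophil markers was 5.15 on both treated arrays, 9.58 in the MLL-AF9 line, 9.09 to 12.2 in NUP98-JARID1A lines and 4.72 to 4.88 in untreated RH-RAS lines. Of the late neutrophil markers 8 of 9 rose in NUP98-JARID1A lines, and 8 were higher by 1 or more in the MLL-AF9 line. With SGC0946 1 of the 9 rose, Mmp8 by 2.49, and 0 fell. Of 8 progenitor genes 1 rose and 3 fell with SGC0946, among them the stem cell factor receptor Kit by 1.98, while in NUP98-JARID1A lines 4 of the 8 rose, Kit by 1.68, and 2 fell. The mean of 6 T and NK cell markers was 5.51 and 5.54 on the treated arrays, 4.96 in the MLL-AF9 line, 5.75 to 5.95 in NUP98-JARID1A lines and 6.22 to 7.62 in untreated RH-RAS lines. Of these 6 markers 3 fell with SGC0946, 2 fell and 1 rose in NUP98-JARID1A lines, 4 were lower by 1 or more in the MLL-AF9 line, and all 6 lay lower in line 4 than in lines 1 to 3. Over all genes tested 6.84% rose and 5.12% fell with SGC0946, and 32.5% rose and 18.5% fell in NUP98-JARID1A lines. In the MLL-AF9 line 7.21% were higher and 5.78% lower by 1 or more, and 30.2% lay lower in line 4 than in lines 1 to 3. Monocyte and macrophage markers thus moved mostly up with SGC0946, NUP98-JARID1A and line 4, and went both ways in the MLL-AF9 line. Late neutrophil markers moved up with MLL-AF9 and NUP98-JARID1A, and of them Mmp8 alone rose with SGC0946. T and NK cell markers moved down with SGC0946, MLL-AF9 and line 4. In NUP98-JARID1A lines they went both ways, Gata3 up by 1.59, and 51.0% of all genes passed there in either direction. The part of all these markers in the results was not tested. RNA of a whole culture cannot tell fewer cells of a type from less RNA per cell.

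The respiratory chain genes had narrow ranges. Their median range over the 10 arrays was 0.505 on the log2 scale, against 0.844 over all 11993 genes tested, and 80 of the 86 (93.0%) kept within a range of 1, against 59.8% of all genes. The 6 with a wider range were Cox6a2 at 5.0, Cox7a1 at 1.74, the accessory subunit Ndufb1 at 1.40, the assembly factor Ndufaf6 at 1.22, the complex IV subunit Cox7c at 1.20 and the accessory subunit Ndufa8 at 1.04. Cox7c was read from a dim probe set, with a mean level of 7.73. Within groups the median SD of these genes was 0.0932 over the 3 NUP98-JARID1A lines and 0.0852 over the 4 untreated RH-RAS lines. Over all genes tested the same medians were 0.163 and 0.120. The respiratory chain genes were also brighter, with array medians of 12.1 to 12.5, against 8.61 to 8.90 for all genes tested. The complex I assembly factors were dimmer than the rest of the family, with array medians of 9.23 to 10.0. Ranges were not compared at matched brightness.

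Cox6a2, the muscle isoform of complex IV subunit VIa, differed most between the groups. Its log2 level was 11.97 and 11.58 in treated lines 1 and 3, 9.45 in the MLL-AF9 line, 7.75, 8.05 and 7.55 in NUP98-JARID1A lines 1 to 3, and 12.11, 11.90, 12.09 and 12.55 in untreated RH-RAS lines 1 to 4. The NUP98-JARID1A arrays and the MLL-AF9 array all lay below every RH-RAS array, treated or not. Cox6a2 averaged 7.79 ± 0.25 in NUP98-JARID1A lines (SD, n = 3) and 12.16 ± 0.28 in untreated RH-RAS lines (SD, n = 4). It fell by 4.38 ± 0.18 on the log2 scale (SE; limma adjusted p = 6.51e-06), which is 20.8-fold lower in NUP98-JARID1A lines. Ranked from the lowest fold change, it was number 27 of the 11993 genes tested. The second Cox6a2 probe set gave -5.63 ± 0.21 (SE). In the MLL-AF9 line it was 6.55-fold lower than the RH-RAS mean, with no replicate. Under SGC0946 the change was -0.33 with a 95% interval of -0.91 to 0.25 (limma adjusted p = 0.470), so that no effect of the inhibitor was detectable.

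Cox7a1, the muscle isoform of subunit VIIa, was dimmer and moved less. Its level was 7.10 and 7.07 in treated lines 1 and 3, 6.33 in the MLL-AF9 line, 6.0, 6.55 and 6.83 in NUP98-JARID1A lines, and 7.74, 7.54, 7.71 and 7.01 in untreated RH-RAS lines 1 to 4. The highest NUP98-JARID1A array, at 6.83, lay just under the lowest RH-RAS array, line 4 at 7.01. Cox7a1 fell by 1.04 ± 0.24 in NUP98-JARID1A lines (SE; limma adjusted p = 0.00957) and differed by -1.17 in the MLL-AF9 line. With SGC0946 it changed by -0.64 ± 0.27 (SE) and by -0.64 in each line, but did not pass the test (limma adjusted p = 0.181).

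The widely expressed partner isoforms stayed within narrow ranges. Cox6a1 lay between 13.99 and 14.21 on all 10 arrays, and Cox7a2 between 13.46 and 13.77. Both lay near the highest values of the arrays, 14.72 to 14.83. In NUP98-JARID1A lines Cox6a1 differed by 0.09 with an interval of -0.09 to 0.27, and Cox7a2 by 0.00 with an interval of -0.15 to 0.15. Cox4i2, an isoform of subunit IV known to respond to low oxygen, differed by 0.20 ± 0.11 in NUP98-JARID1A lines (SE; limma adjusted p = 0.173). Its partner Cox4i1 differed by 0.01.

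**Figure D1:**
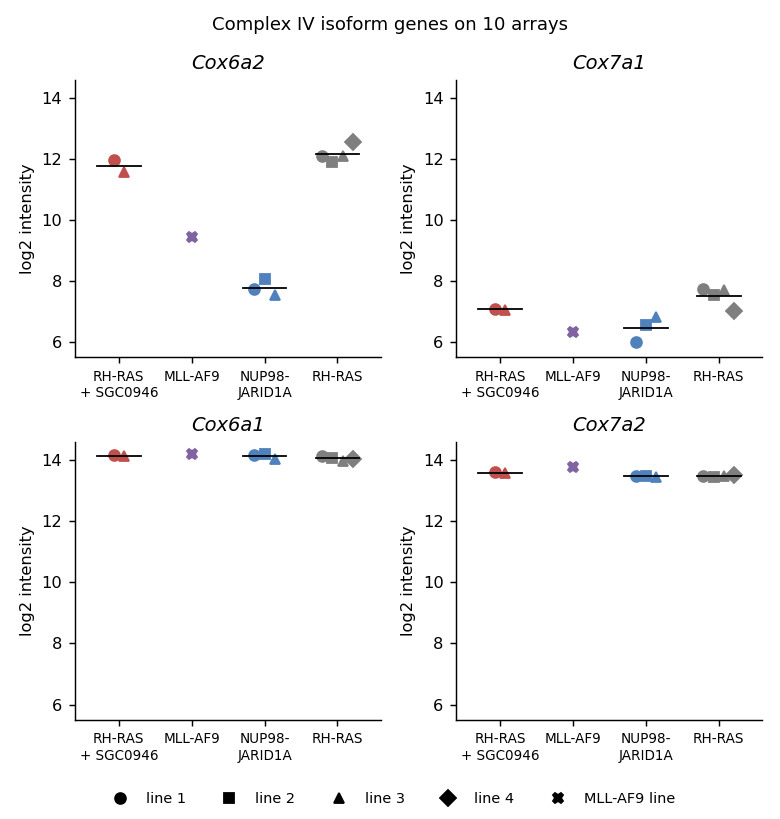
Log2 intensity of 2 muscle isoforms of complex IV, Cox6a2 and Cox7a1, and of their widely expressed partners Cox6a1 and Cox7a2, on the 10 arrays by group. Each point is an array, the marker shape is the line and the bar is the group mean; Cox6a2 lies at 7.55 to 8.05 in NUP98-JARID1A lines and at 11.90 to 12.55 in untreated RH-RAS lines, while Cox6a1 stays between 13.99 and 14.21.

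The bases before the start sites of the isoform pair Cox7a1 and Cox7a2, of Cox6a1 and of the single-isoform gene Ndufb1 are shown. They were chosen because Cox7a1 and Ndufb1 passed a test between groups and Cox7a2 and Cox6a1 did not. No promoter was matched for Cox6a2, the partner of Cox6a1, so its bases are not shown. The stretches given are the 250 bases before the RefSeq start on GRCm38.p6, 5′ to 3′ on the gene's strand. Cox6a1 is at chr5:115348959-115349208 on the minus strand, Cox7a1 at chr7:30183921-30184170 on the plus strand, Cox7a2 at chr9:79759854-79760103 on the minus strand and Ndufb1 at chr12:101975739-101975988 on the minus strand. Capitals mark the motif letters GCGCATG of nuclear respiratory factor NRF1 and CCGGAAG of ETS factors such as GABP on either strand, and in Cox6a1 a pair of NRF1 matches on opposite strands overlap.
Cox6a1: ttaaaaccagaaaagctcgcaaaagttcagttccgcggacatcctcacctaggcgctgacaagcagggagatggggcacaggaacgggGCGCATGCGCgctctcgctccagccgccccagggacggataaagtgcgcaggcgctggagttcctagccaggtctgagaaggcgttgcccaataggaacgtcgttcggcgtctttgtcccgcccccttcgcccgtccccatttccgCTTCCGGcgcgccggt
Cox7a1: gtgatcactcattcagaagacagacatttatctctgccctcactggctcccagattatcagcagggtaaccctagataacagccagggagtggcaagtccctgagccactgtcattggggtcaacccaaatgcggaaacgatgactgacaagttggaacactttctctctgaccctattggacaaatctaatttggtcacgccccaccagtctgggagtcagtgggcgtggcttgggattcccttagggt
Cox7a2: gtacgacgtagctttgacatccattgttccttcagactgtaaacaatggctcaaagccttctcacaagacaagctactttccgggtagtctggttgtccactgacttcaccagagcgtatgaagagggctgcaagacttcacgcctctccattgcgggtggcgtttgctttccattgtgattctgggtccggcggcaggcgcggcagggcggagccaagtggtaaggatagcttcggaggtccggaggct
Ndufb1: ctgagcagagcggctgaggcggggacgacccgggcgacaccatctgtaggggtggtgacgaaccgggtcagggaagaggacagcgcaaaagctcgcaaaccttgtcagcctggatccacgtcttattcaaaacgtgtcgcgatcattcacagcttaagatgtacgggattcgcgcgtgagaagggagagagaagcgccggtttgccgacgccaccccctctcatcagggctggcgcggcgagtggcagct
The Cox6a1 stretch held 62.8% G and C and 26 CpG pairs. The Cox7a1 stretch, with none of the letters searched, held 51.2% and 4 CpG pairs. The Cox7a2 stretch held 54.8% and 14 CpG pairs, and that of Ndufb1 61.2% and 24, again with no match.

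Over the whole family, RefSeq windows of 250 bases before to 50 after the start were matched to 74 of the 90 genes. A gene with several windows was counted once. The 74 genes had 79 windows and the 9699 tested genes had 12356. The NRF1 letters GCGCATG stood on either strand for 14 of the 74 genes (18.9%), against 7.70% of 9699 tested genes and 4.41% of 27025 RefSeq genes. The ETS letters CCGGAAG stood in 19 (25.7%), against 19.8% and 9.93%. The letters AAATGGC, the core of the YY1 motif, stood in 4 (5.41%), against 4.96% and 4.79%. At least 1 of the 3 motifs was found for 31 genes (41.9%), against 29.4% of tested genes. A match describes the letters and does not show that a factor binds there.

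The first comparison asked what 4 days of Dot1l inhibition did to these genes in RH-RAS lines 1 and 3. Among the 86 genes 1 rose and 0 fell, where 6.84% of all genes tested rose and 5.12% fell (limma, Benjamini-Hochberg over 11993 genes, threshold 0.05). At an unadjusted p under 0.05 there were 22 of the 86. The median change was 0.13 on the log2 scale, against 0.02 over all genes. In both treated lines 61 genes lay above their own untreated line (70.9%), against 42.8% of all genes, and 11 lay below it in both (12.8%), against 36.9%. Both treated arrays lay above all 4 untreated arrays for 37 genes, against 26.6% of all genes. The displacement was small, and 85 of the 86 genes did not pass the adjusted threshold.

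Ndufb1, a small accessory subunit of the membrane arm of complex I, was the gene that rose. Its level was 9.03 and 8.86 in treated lines 1 and 3, against 8.42 and 8.20 in the same lines untreated. Untreated lines 2 and 4, at 8.59 and 8.60, also lay below both treated arrays. The rise was 0.64 ± 0.13 on the log2 scale (SE; limma adjusted p = 0.0208), or 1.56-fold, with 0.61 in line 1 and 0.66 in line 3. Leaving out any of the 4 arrays of lines 1 and 3 ended the call, and over all alternatives the adjusted p lay between 0.00704 and 0.148. With the cell line as a block, since treated and untreated arrays are of the same lines, Ndufb1 was again the 1 gene of the 86 to rise (limma adjusted p = 0.0324), while the genes that rose and fell over the whole array numbered 502 and 364, against 820 and 614 without the block.

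Complex I core subunits had a median change of 0.11 and accessory subunits one of 0.16. Ndufs8, which carries iron-sulfur clusters of the core, changed by 0.50 ± 0.16 (SE; limma adjusted p = 0.0947). Its treated levels were 12.83 and 12.69, against 12.46 and 12.06 in untreated lines 1 and 3 and 12.56 and 12.48 in lines 2 and 4. Both treated arrays lay above all 4 untreated ones, and line 3 differed more than line 1. All 6 of its probe sets gave a positive change, between 0.20 and 0.58. Ndufv3, an accessory subunit of the NADH-oxidising end, went the other way at 12.11 and 12.09 in treated lines 1 and 3, against 12.63 and 12.57 in the same lines untreated. Its change was -0.50 ± 0.16 (SE; limma adjusted p = 0.0920), and untreated line 4, at 12.06, overlapped the treated arrays.

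The 8 complex I assembly factors had a median change of 0.36, and 6 of them lay higher in both treated lines. Ndufaf6, needed early in assembly, had 9.64 and 9.49 in treated lines 1 and 3, against 9.06 and 9.02 in the same lines untreated. Its change of 0.52 ± 0.16 (SE) did not pass (limma adjusted p = 0.0817), and untreated line 4 at 9.51 lay between the treated values. Ndufaf8, the partner of the arginine hydroxylase Ndufaf5, changed by 0.38 (limma adjusted p = 0.0585) and Ndufaf5 by 0.44 (limma adjusted p = 0.136).

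The 4 subunits of complex II, which is succinate dehydrogenase, had a median change of 0.30. Sdhb, the iron-sulfur subunit, stood at 12.62 and 12.53 in treated lines 1 and 3, against 12.17 and 12.02 in the same lines untreated. Both treated arrays lay above all untreated arrays, whose highest was 12.28 in line 4, yet the change of 0.48 ± 0.14 (SE) did not pass (limma adjusted p = 0.0703). The membrane anchors Sdhc and Sdhd changed by 0.37 and 0.23, and the flavoprotein Sdha, which holds the active site, by 0.01. None of these 4 passed.

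Complex III had a median of 0.10, complex V one of 0.13 and complex IV one of 0.03. Within complex III the largest change was 0.27 for Uqcrb, a small accessory subunit, and within complex V it was 0.20 for Atp5g1, a gene of the proton-carrying c ring. In complex IV 6 of 14 genes lay higher and 6 lower in both treated lines. The lowest were Cox7a1 and then Cox7c, at 7.21 and 7.15 in treated lines 1 and 3, against 7.73 and 7.56 in the same lines untreated. Cox7c changed by -0.46 ± 0.19 (SE) and did not pass (limma adjusted p = 0.177). Both its probe sets were dim, with mean levels of 7.73 and 6.17.

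**Figure D2:**
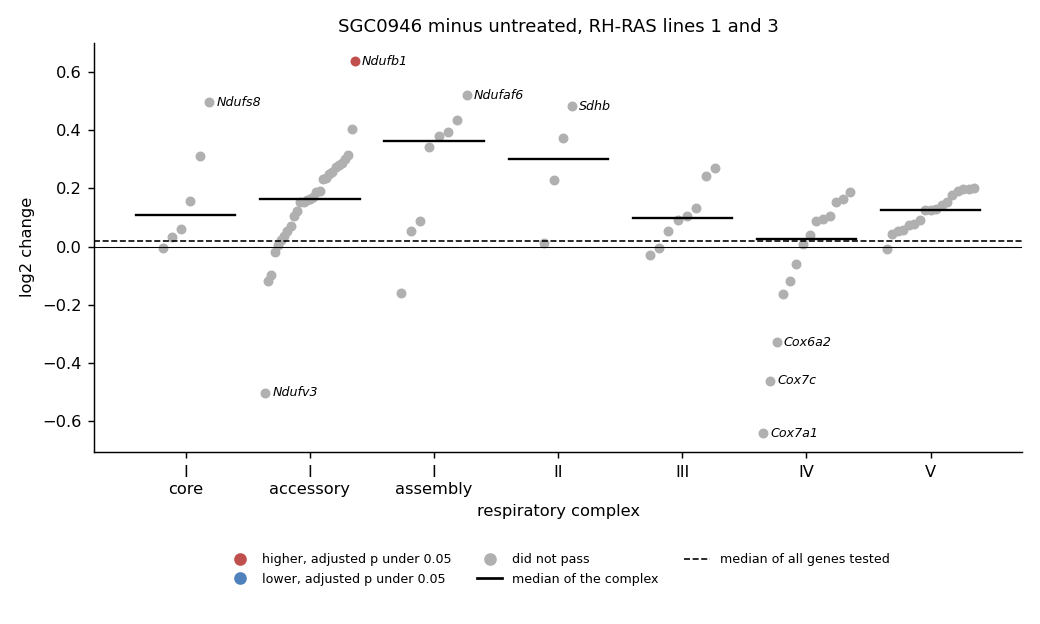
Log2 change of each of the 86 genes with SGC0946, as treated minus untreated RH-RAS lines 1 and 3, by complex. Points are genes, solid bars are medians of a complex and the dashed line is the median of all genes tested at 0.02; Ndufb1 alone passed the limma test, and the assembly factors and complex II have the highest medians, at 0.36 and 0.30.

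The SGC0946 fit takes part of its spread from arrays that are in neither arm. Without the NUP98-JARID1A arrays 5 of the 86 genes rose, namely Ndufaf6, Ndufaf8, Ndufb1, Ndufb10 and Sdhb, and Cox7a1 fell, where 12.6% of all genes rose and 10.3% fell. With the 4 arrays of lines 1 and 3 alone 13 rose and 3 fell, where 16.9% of all genes rose and 14.3% fell. In both fits the family's counts were no higher than these shares.

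The second comparison set the 3 NUP98-JARID1A lines against the 4 untreated RH-RAS lines. Of the 86 genes 18 rose, 6 fell and 62 did not pass, where 32.5% of all genes tested rose and 18.5% fell, or 51.0% in either direction. The median change was 0.10 both for these genes and for all genes. All 3 NUP98-JARID1A arrays lay above all 4 RH-RAS arrays for 21 genes (24.4%), against 34.8% of all genes, and below them for 9 (10.5%), against 20.1%. The direction of small changes depended on the scaling. With each array's median over the 18194 genes subtracted, the median over all genes tested was -0.15, and 6 of the 86 rose while 28 fell. Of these calls, 5 genes that rose (Ndufb1, Ndufa8, Ndufaf8, Atp5mpl and Uqcr10) and 4 genes that fell (Cox6a2, Cox7a1, Atp5b and Atp5pb) passed under all 16 alternatives tried.

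Complex I gave 8 of the 18 genes that rose, as 1 of 6 core subunits, 5 of 29 accessory subunits tested and 2 of 8 assembly factors. Each of these shares lay under the 32.5% of all genes tested that rose. Ndufb1 stood at 9.60, 9.46 and 9.34 in NUP98-JARID1A lines 1 to 3, against 8.42, 8.59, 8.20 and 8.60 in untreated RH-RAS lines 1 to 4. The groups were well apart, and it rose by 1.01 ± 0.12 (SE; limma adjusted p = 0.000492), or 2.02-fold. Ndufa8, an accessory subunit that faces the intermembrane space, stood at 12.21, 12.40 and 12.46, against 11.76, 11.85, 11.42 and 11.52 in RH-RAS lines. It rose by 0.72 ± 0.13 (SE; limma adjusted p = 0.00270). Its SGC0946 change was 0.04, with an interval of -0.35 to 0.42.

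Ndufaf8 stood at 11.11, 10.95 and 10.97 in NUP98-JARID1A lines, against 10.33, 10.43, 10.13 and 10.45 in RH-RAS lines, and rose by 0.67 ± 0.10 (SE; limma adjusted p = 0.00129). Ndufaf7, an arginine methyltransferase for complex I, rose by 0.36 (limma adjusted p = 0.0468), with lines at 9.30, 9.09 and 8.79, against 8.73, 8.65, 8.64 and 8.80 in RH-RAS lines. Here the groups overlapped by the lowest NUP98-JARID1A array and the highest RH-RAS array. Other complex I genes that rose were Ndufs4 by 0.48, Ndufb3 by 0.46, Ndufa4 by 0.41 and the core subunit Ndufs3 by 0.28. For Ndufs4 other probe sets gave -0.33 and -0.06, and with the mean of all its probe sets the difference was 0.07 (limma adjusted p = 0.578). Ndufa4 keeps its complex I name although its protein is now placed in complex IV. Only Ndufa1, a small subunit of the membrane arm, fell in complex I, by 0.23 (limma adjusted p = 0.0334). Ndufv3 differed by -0.39 ± 0.15 (SE) and did not pass (limma adjusted p = 0.0582).

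In complex II 0 of 4 genes passed, and Sdhb had the largest difference, 0.25 (limma adjusted p = 0.111). In complex III 3 of 8 rose and 0 fell. Uqcr10, a small subunit, stood at 12.34, 12.37 and 12.23 in NUP98-JARID1A lines, against 11.76, 11.80, 11.62 and 11.74 in RH-RAS lines. It rose by 0.58 ± 0.08 (SE; limma adjusted p = 0.000860). Uqcrh, the hinge protein that holds cytochrome c1, rose by 0.35 and Uqcrb by 0.24. Their other probe sets differed by only 0.07 ± 0.08 for Uqcrh and 0.08 ± 0.18 for Uqcrb (SE).

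In complex IV Cox6a2 and Cox7a1 fell and Cox5b rose by 0.31 (limma adjusted p = 0.0102), while 11 of 14 did not pass. In complex V 6 of 17 genes rose and 3 fell, shares near the 32.5% and 18.5% of all genes tested. Atp5b, the catalytic beta subunit of the F1 head, stood at 13.23, 13.24 and 13.13 in NUP98-JARID1A lines, against 13.57, 13.62, 13.55 and 13.62 in RH-RAS lines. It fell by 0.39 ± 0.07 (SE; limma adjusted p = 0.00291). Atp5pb, the b subunit of the peripheral stalk, stood at 12.95, 12.76 and 12.90, against 13.31, 13.39, 13.41 and 13.50 in RH-RAS lines. It fell by 0.53 ± 0.08 (SE; limma adjusted p = 0.00172), but its other probe set differed by only -0.05 ± 0.08 (SE).

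The gamma subunit gene Atp5c1 fell by 0.33 ± 0.08 (SE; limma adjusted p = 0.00884), and a dim second probe set differed by 1.05 ± 0.17 (SE), so its direction rests on the probe set taken. The alpha subunit gene Atp5a1 differed by 0.21 and did not pass (limma adjusted p = 0.0918). Of the genes that rose in complex V, Atp5mpl, a small membrane subunit, stood at 13.01, 13.23 and 13.02 in NUP98-JARID1A lines, against 12.42, 12.50, 12.45 and 12.40 in RH-RAS lines. It rose by 0.65 ± 0.08 (SE; limma adjusted p = 0.000700). The 3 genes of the c ring code for the same mature protein, and of these Atp5g2 rose by 0.49 and Atp5g1 by 0.33, while Atp5g3 differed by 0.00.

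**Figure D3:**
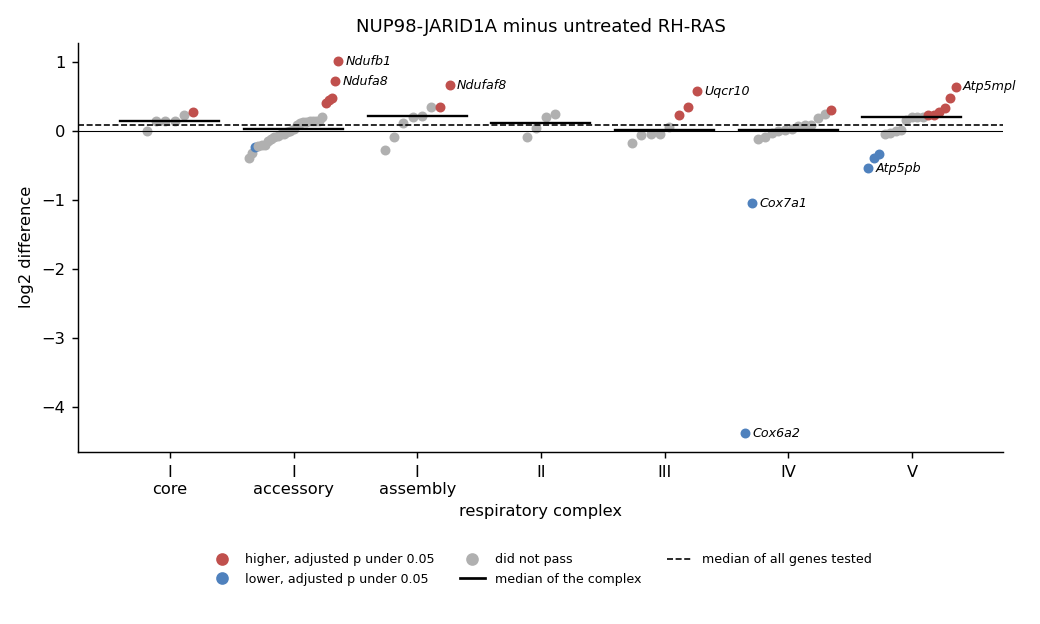
Log2 change of each of the 86 genes in NUP98-JARID1A lines relative to untreated RH-RAS lines, by complex. Points are genes, coloured by the limma call, solid bars are medians of a complex and the dashed line is the median of all genes tested at 0.10; Cox6a2 lies far below the rest at -4.38.

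Where a gene had other probe sets above the array median, these were set against the probe set used. Over 62 such probe sets of 43 genes the median absolute gap to the probe set used was 0.06 for SGC0946 and 0.25 for NUP98-JARID1A. In the NUP98-JARID1A comparison 16 of the 62 had a sign opposite to the probe set used by more than 2 SE, against 0 for SGC0946. Cox5a, which differed by 0.07 on the probe set used, had -0.56 and -0.62 on both others, and Cox6c had 0.10 and -0.91. Cox6a2 and Ndufaf8 had the same sign on both their probe sets.

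**Figure D4:**
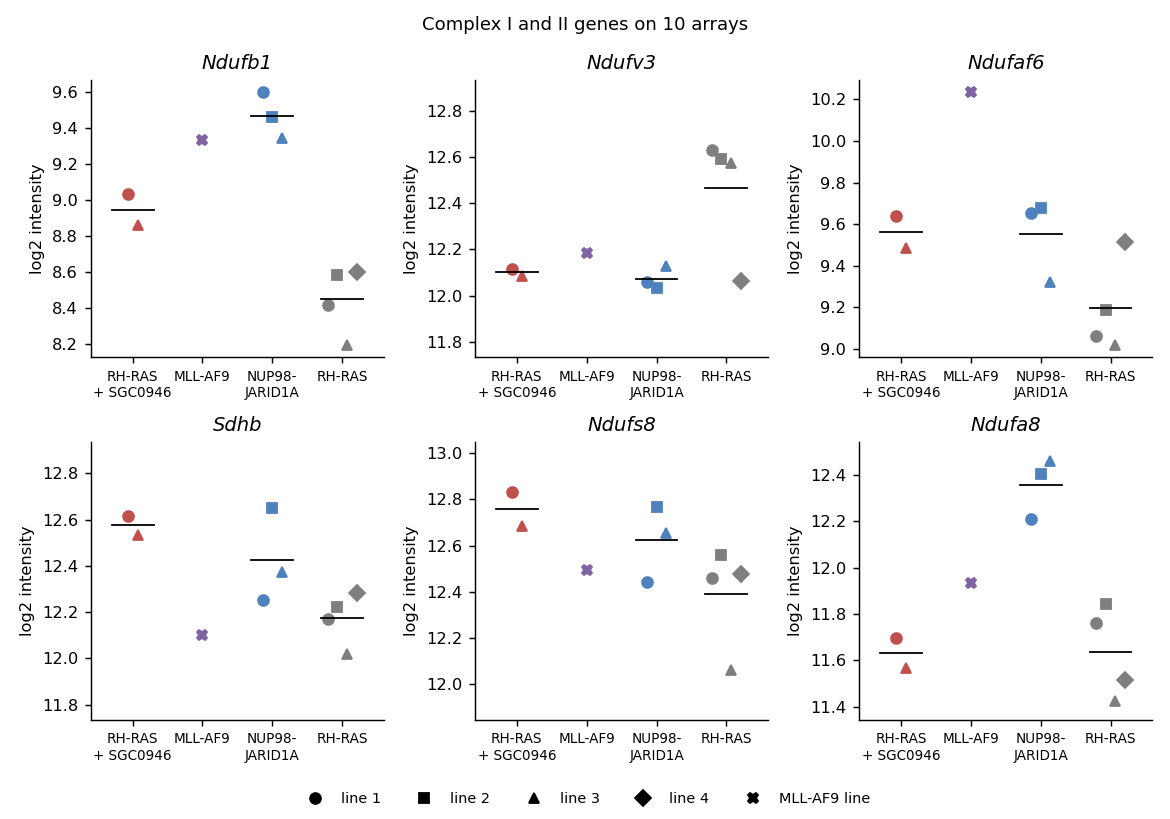
Log2 intensity of the complex I and II genes Ndufb1, Ndufv3, Ndufaf6, Sdhb, Ndufs8 and Ndufa8, by group, in the layout of the isoform plot. Of these only Ndufb1 and Ndufa8 passed a test between groups. Each point is an array and the bar is the group mean; Ndufb1 lies at 8.86 and 9.03 in treated lines, 9.34 to 9.60 in NUP98-JARID1A lines and 8.20 to 8.60 in untreated RH-RAS lines.

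The single MLL-AF9 array was described without a test. Counting genes that were 1 or more from the RH-RAS mean and beyond all 4 single RH-RAS values, 1 of 86 was higher and 2 were lower, where 7.21% of all genes were higher and 5.78% lower. The gene above was Ndufaf6, at 10.23 in the MLL-AF9 line, against 9.06, 9.19, 9.02 and 9.51 in untreated RH-RAS lines. The genes below were Cox6a2 and Cox7a1. The median difference was 0.20, against 0.07 over all genes, and 60 genes (69.8%) lay above all 4 RH-RAS arrays, against 44.6% of all genes. With array medians subtracted the median of the 86 genes was 0.0577, and Ndufaf6 no longer counted as higher there, with cyclic loess, or without RH-RAS line 1 or line 3.

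By complex the assembly factors had the highest median difference in the MLL-AF9 line, 0.68, with 7 of 8 above all 4 RH-RAS arrays. Next to Ndufaf6 at 1.04 stood Ndufaf4 at 0.78, Ndufaf8 at 0.77 and Ndufaf5 at 0.76. The accessory subunits Ndufb1 and Ndufb3 differed by 0.88 and 0.79. Complex II had a median of -0.06. On the low side after the muscle isoforms came Atp5b at -0.62, the supercomplex factor Cox7a2l at -0.41, Ndufb2 at -0.32 and Atp5a1 at -0.30.

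Among untreated RH-RAS lines, line 4 had higher monocyte and macrophage markers, and its respiratory chain genes were compared with lines 1 to 3 without a test. No gene of the 86 differed by 1 or more, where 0.867% of all genes were higher and 0.934% lower. Line 4 lay above lines 1 to 3 for 42 genes (48.8%), against 33.2% of all genes, and below them for 5 (5.81%), against 30.2%. All 8 assembly factors and all 4 complex II subunits lay above, with medians of 0.26 and 0.15. Cox6a2 differed by 0.52, Ndufaf2 by 0.50 and Ndufaf4 by 0.45, and on the low side Cox7a1 by -0.66, Ndufv3 by -0.53 and Cox7c by -0.32. The comparisons of SGC0946, MLL-AF9 and NUP98-JARID1A share the untreated RH-RAS arrays, so these values are set side by side and no overlap was tested.

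**Figure D5:**
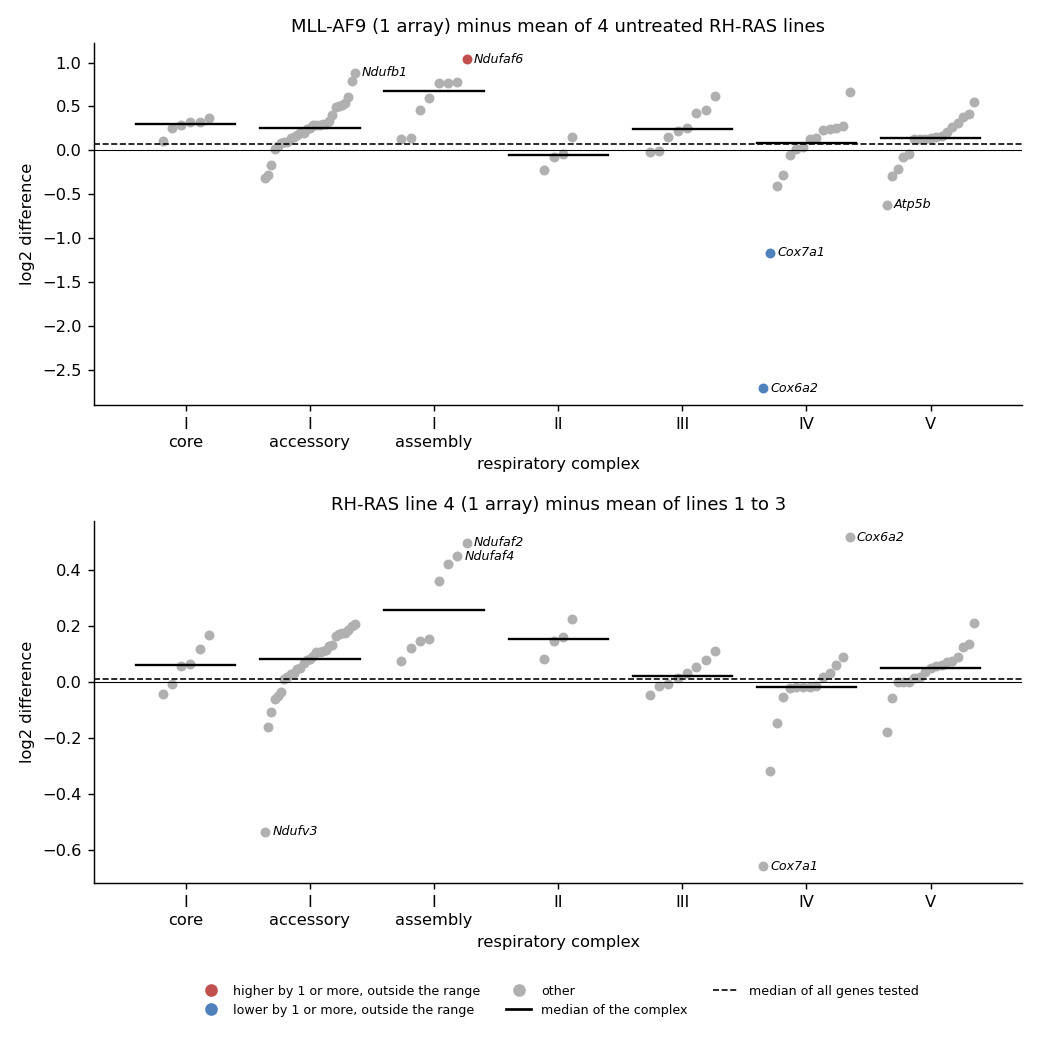
Log2 difference of each of the 86 genes in the MLL-AF9 line from the mean of 4 untreated RH-RAS lines (top) and in RH-RAS line 4 from the mean of lines 1 to 3 (bottom), by complex. Points are genes, bars are medians of a complex and the dashed line is the median of all genes tested; the assembly factors have the highest median in both panels, at 0.68 and 0.26.

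Genes that feed, build or regulate the chain but lie outside the family were read from lists, whose counts stand beside shares over all genes of 6.84% up and 5.12% down under SGC0946 and of 32.5% up and 18.5% down in NUP98-JARID1A lines. Under SGC0946 2 of 16 genes of the TCA cycle and pyruvate dehydrogenase rose and 0 fell. Fumarase, Fh1, stood at 13.20 and 13.20 in treated lines 1 and 3, against 12.36 and 12.39 in the same lines untreated, and rose by 0.82 ± 0.13 (SE; limma adjusted p = 0.0118). Citrate synthase, Cs, rose by 0.34 (limma adjusted p = 0.0499). In NUP98-JARID1A lines 2 of the 16 rose and 4 fell, among them Ogdh up by 0.52 and Fh1, which fell by 0.45.

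None of 14 genes for electron carriers passed under SGC0946, while 8 rose and 1 fell in NUP98-JARID1A lines, with a median of 0.39. Coq8a and Coq7, of ubiquinone synthesis, rose by 0.95 and 0.85, and Etfb, a subunit of the electron transfer flavoprotein, rose by 0.83. Of 34 assembly factors without the Ndufaf prefix, 17 rose and 2 fell in NUP98-JARID1A lines, with a median of 0.37. These included Sdhaf1 of complex II by 1.14, Foxred1 of complex I by 0.93 and Cox19 of complex IV by 0.92. Cox19 was also the 1 gene of the 34 that rose under SGC0946, by 0.51 ± 0.11 (SE; limma adjusted p = 0.0257). For 76 genes of the mitochondrial ribosome the counts were 1 up and 0 down under SGC0946 and 32 up and 1 down in NUP98-JARID1A lines. These counts depended on the scaling. With array medians subtracted, where 19.5% of all genes rose and 34.1% fell in NUP98-JARID1A lines, the rises and falls there were 4 and 3 for electron carriers, 8 and 5 for assembly factors, 7 and 11 for the mitochondrial ribosome, and 0 and 12 for the TCA cycle and pyruvate dehydrogenase. Under SGC0946 that scaling left 1 rise in the TCA list and 0 among the assembly factors. Of the 7 genes for ATP and ADP exchange and phosphate entry, 0 passed under SGC0946, and 1 rose and 1 fell in NUP98-JARID1A lines, or 0 and 3 with array medians subtracted.

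Among 12 regulators tested, Myc, a transcription factor that promotes growth, was the only one to pass under SGC0946, and it fell by 0.53 (limma adjusted p = 0.0382). Nrf1 changed by 0.09, Ppargc1b by 0.14 and Tfam, which maintains mitochondrial DNA, by -0.27, and none of these 3 passed. In NUP98-JARID1A lines Gabpa, the DNA-binding subunit of GABP, stood at 10.66, 10.38 and 10.56, against 11.36, 11.42, 11.44 and 11.35 in RH-RAS lines. It fell by 0.86 ± 0.09 (SE; limma adjusted p = 0.000253), while its partner Gabpb1 rose by 0.75. Yy1 fell by 0.61 and Tfam by 0.45, and the nuclear receptor Esrra rose by 0.33. Nrf1 differed by -0.33 there and did not pass (limma adjusted p = 0.0898). With array medians subtracted 0 of the 12 regulators rose and 4 fell.

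Of 10 genes known to respond to low oxygen, 0 rose and 8 fell under SGC0946, with a median of -1.81. Ak4, a mitochondrial adenylate kinase, stood at 5.55 and 5.69 in treated lines 1 and 3, against 10.38 and 10.32 in the same lines untreated. It fell by 4.73 ± 0.57 (SE; limma adjusted p = 0.00532). Stc2 fell by 4.09 and the oxygen sensor Egln3 by 3.02. In NUP98-JARID1A lines 1 of the 10 rose and 8 fell, with Bnip3, a mitophagy receptor, down at 10.60, 10.76 and 10.45, against 13.46, 13.34, 13.54 and 12.22 in RH-RAS lines. Line 4 had a median of -1.05 for the 10 genes, and 6 of them lay at least 1 below lines 1 to 3. The MLL-AF9 line had a median of -1.03. There 1 of the 10 was higher and 5 were lower by 1 or more, where 7.21% of all genes were higher and 5.78% lower. The respiratory chain genes had medians of 0.13 with SGC0946, 0.10 in NUP98-JARID1A lines, 0.06 in line 4 and 0.20 in the MLL-AF9 line.

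Cox6a2 is known from muscle and, in mouse, also from plasmacytoid dendritic cells, and markers of both were read after its values had been seen. Of 11 striated muscle genes 4 were above the filter, and in NUP98-JARID1A lines 0 rose and 2 fell, Des by 0.35 and Acta1 by 0.29. With SGC0946 1 of the 4 rose, Tnni2 by 1.64 (limma adjusted p = 0.0493), and 0 fell. With the cell line as a block 0 rose. Of 10 plasmacytoid dendritic cell genes tested, 1 rose and 5 fell in NUP98-JARID1A lines, where 32.5% of all genes rose and 18.5% fell. The gene that rose was Bst2, by 1.51 (limma adjusted p = 0.000275). With SGC0946 2 of the 10 rose, Irf8 by 1.80 and Bst2 by 0.83, and 1 fell, Lag3 by 1.13. The shares of all genes there were 6.84% up and 5.12% down. Ccr9, a chemokine receptor, stood at 4.15, 6.55 and 4.69 in NUP98-JARID1A lines, against 12.54, 12.78, 12.83 and 12.12 in RH-RAS lines, and fell by 7.43 (limma adjusted p = 6.17e-05). It stood at 5.04 in the MLL-AF9 line and at 10.63 and 10.29 in treated lines 1 and 3. Siglech, a receptor of those cells, stood at 6.48, 6.55 and 6.12 in NUP98-JARID1A lines, against 7.29, 7.44, 7.64 and 7.20 in RH-RAS lines. The mean level of the 11 measured genes was 7.81 and 7.85 on the treated arrays, 7.22 in the MLL-AF9 line, 6.86 to 7.52 in NUP98-JARID1A lines and 7.79 to 8.03 in RH-RAS lines, and their part in the Cox6a2 result was not tested.

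Of the 5 genes on either side of Cox6a2 on chromosome 7, 7 were tested and 0 fell in NUP98-JARID1A lines. Of all genes tested 18.5% fell there and 32.5% rose. Itgam, the integrin CD11b, rose by 3.27 in NUP98-JARID1A lines (limma adjusted p = 0.000107) and Pycard, an inflammasome adaptor, by 1.33. Rusf1 rose by 1.21 (limma adjusted p = 0.000286) and 9130023H24Rik by 0.71 (limma adjusted p = 0.00331). Slc5a2 differed by 0.36 and did not pass (limma adjusted p = 0.125). Itgax, the integrin CD11c, differed by -0.01 (limma adjusted p = 0.980) and Armc5 by -0.13 (limma adjusted p = 0.223).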

How the data were processed

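Each of the 10 arrays gave log2 intensities per probe set, which the authors made with RMA, per the submitters' processing notes; its version is not given in the sources used here. Array medians over all probe sets lay between 5.72 and 5.82, and the values were used as given. The array medians subtracted in alternatives were instead those over the 18194 genes, each read from its brightest probe set. Differences between dim values are understated on this scale.

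Of 45101 probe sets, 34958 had 1 gene symbol in the array annotation and 932 with several were not used. Fits used limma 3.58.1 in R 4.3.3 over 11993 genes, with Benjamini-Hochberg adjusted p and a threshold of 0.05. SGC0946 was fitted on all 10 arrays with 5 coefficients, as treated minus untreated lines 1 and 3. NUP98-JARID1A was fitted on the 8 arrays without inhibitor. Scripts were tested on simulated data.

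Named genes were those past the threshold (at most 12 each way), the largest change of each complex, the extremes of MLL-AF9 and line 4, and the isoform genes. Ndufb10, named for alternatives, was chosen after its values were seen. The members and lists were chosen with earlier results of these data known. Treated and untreated arrays of lines 1 and 3 share a cell line, and the deviations from the group means of the 2 lines had a correlation of 0.292; the numbers of NUP98-JARID1A lines pair nothing. Promoters came from RefSeq, assembly GRCm38.p6.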

Additional observations from a re-analysis of the deposited data

Results flagged for a closer look

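In untreated RH-RAS line 4 the complex I subunit gene Ndufv3 stood at 12.06, and the other 3 untreated lines stood at 12.57 to 12.63. The gap to the nearest line was 0.898 of the whole range, above Dixon's 95% critical value for 4 samples. It was 1 of 48 named genes examined, and chance flags about 1 in 20 such groups. Ndufv3 changed by -0.50 with SGC0946 (limma adjusted p = 0.0920) and by -0.39 in NUP98-JARID1A lines (limma adjusted p = 0.0582). Leaving out line 4, it fell under SGC0946 (limma adjusted p = 0.0183).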

How the results depend on the processing

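For SGC0946, the genes that rose or fell in the family numbered 2 and 0 with the filter at all 10 arrays, 6 and 0 with a mean-variance trend, 13 and 3 on the 4 arrays of lines 1 and 3, 3 and 0 with all 4 untreated lines as control, and 5 and 1 without the NUP98-JARID1A arrays, an alternative chosen after seeing the data. Over all genes the rises and falls were 2031 and 1715 on the 4 arrays, 1512 and 1233 without the NUP98-JARID1A arrays, and 502 and 364 with the cell line as a replicate block, which kept Ndufb1 (limma adjusted p = 0.0324). Leaving out 1 array at a time gave 0 to 1 rises and 0 to 1 falls in the family, and 19 to 815 rises and 9 to 667 falls over all genes. The 0 rises came without treated or untreated line 1 or 3, and the 1 fall, Ndufv3, without untreated line 4.

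For NUP98-JARID1A, subtracting array medians over the 18194 genes gave 6 rises and 28 falls in the family with a median of -0.15. Over all genes tested it gave 2342 rises and 4086 falls. Subtracting medians over the genes tested, chosen after seeing the data, gave 7 and 31 with a median of -0.16, and 2344 and 4306. Cox4i1 then turned to -0.23 and -0.24. The mean of all probe sets gave 11 falls and turned Atp5c1 to 0.36, Cox5a to -0.37 and Cox6c to -0.41. The replicate block by line number gave 11 rises; the numbers name different lines, whose same-number correlations were -0.05, -0.02 and 0.07. Leaving out 1 array gave 12 to 18 rises and 5 to 7 falls.

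For MLL-AF9, 0 genes lay 1 or more above RH-RAS with array medians subtracted (median 0.0577), with cyclic loess, or without RH-RAS line 1 or 3. The SGC0946 median of the family, 0.13, was lowest at 0.0749 with the median over the genes tested subtracted. Other counts of the family were within 1.5 times of those reported, and other medians kept their sign. Taking each named gene under each alternative, a call was lost in 42 cases and gained in 29. The number of arrays limits the precision, and dim genes such as Cox7a1 have compressed differences.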
